A study of Mus musculus with 6 samples.

Results

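Scavenger receptors are a functional family of surface and endosomal proteins that bind modified lipoproteins, anionic ligands, bacteria and dying cells and carry them into the cell. They are grouped into lettered classes by structure rather than by ancestry, and the resident macrophages of the liver, the Kupffer cells, are known for clearing such ligands from portal blood with them. The mRNA levels of 9 of these receptors were followed in liver F4/80-positive cells: *Msr1*, *Marco* and *Colec12* of class A, *Cd36* and *Scarb1* of class B, *Cd68* of class D, *Olr1* of class E, *Cxcl16* of class G and *Stab1* of class H. They were found by their GENCODE M21 gene symbols among the 49315 genes counted, and all 9 were matched and passed the filter on low counts.

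The libraries came from 3 WT and 3 Lpcat3KOMac mice, with 1 library per mouse, and the question was whether the loss of *Lpcat3*, an enzyme that places polyunsaturated fatty acids into membrane phospholipids, changed the macrophages of a fatty liver. Lpcat3KOMac mice were Lpcat3 fl/fl/LysM Cre/+ and WT mice were their Lpcat3 fl/fl/LysM +/+ littermates, so that both groups carried the floxed alleles and only the former carried Cre. All had a C57BL/6N background, were young adults when the diet began and had received an HFD with 60% fat for 16 weeks. *LysM* Cre is active in myeloid cells at large, not in Kupffer cells alone, and sits in *Lyz2*, so the groups also differ in the number of intact *Lyz2* copies. Cells were taken from digested livers with magnetic beads against F4/80 after the heavier hepatocytes had been spun down.

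Total counts lay between 44954224 and 71392812 per library. *Lpcat3* stood at 85.0, 66.2 and 61.2 CPM (counts scaled by library size and, with TMM, by library composition) in the WT libraries (mice 1 to 3) and 19.5, 33.3 and 19.4 CPM in the Lpcat3KOMac libraries, so every library matched its genotype label. The library with the most hepatocyte transcripts in each genotype, WT mouse 1 and Lpcat3KOMac mouse 2, also held the most *Lpcat3*, and the part of incomplete deletion and of other cells in the remaining *Lpcat3* was not tested. *Lyz2* likewise averaged 6213 ± 1483 CPM in WT against 2322 ± 732 CPM in Lpcat3KOMac cells (SD, n = 3 each), and of the 3 tools only DESeq2 called the 2 genes. The 7 Kupffer cell markers were abundant in every library, with a summed level of 28324 to 37815 CPM in WT and 22912 to 29147 CPM in Lpcat3KOMac cells. All 7 had a log2 fold change below 0, as did 59.9% of all genes tested, with a median of -0.24. For 2 of them, *Clec4f* and *Folr2*, every Lpcat3KOMac library was below every WT library, as for 5.2% of all genes, and the same 2 had an unadjusted p under 0.05 in edgeR, as did 2.64% of all genes. The 5 hepatocyte transcripts examined summed to 19288 CPM in WT mouse 1 and 12496 CPM in Lpcat3KOMac mouse 2, against 1730 to 4463 CPM in the other libraries. The 7 endothelial markers summed to between 1025 and 1402 CPM, the 8 recruited macrophage markers to between 161 and 669 CPM and the 7 stellate cell markers to between 250 and 357 CPM. Much of the stellate cell sum was *Ecm1*, at 140 to 193 CPM, a 1.38-fold range. The other stellate cell markers ranged more widely, from 2.69-fold (*Reln*) to 6.94-fold (*Col1a1*). The 6 lymphocyte markers summed to at most 6.69 CPM and the 6 neutrophil and dendritic cell markers to at most 7.82 CPM. In such bulk samples fewer cells of a type and less RNA per cell cannot be told apart.

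Of the receptors, all but *Olr1* were among the more abundant transcripts of these cells. Scaled by exon length, *Marco* and *Cd68* led, with means of 831 and 631 CPM per kilobase over the 6 libraries. *Cd36* followed at 202 CPM per kilobase (149 to 229), *Msr1* at 114 (98.2 to 130) and *Cxcl16* at 93.8 (69.6 to 120). *Colec12* was at 47.9 CPM per kilobase (10.4 to 91.4), *Scarb1* at 34.4 (28.5 to 40.3) and *Stab1* at 30.2 (22.6 to 37.5). *Olr1* stood far apart at 0.266 CPM per kilobase (0.0727 to 0.487). By this scale *Marco* exceeded 99.7% of the 16134 genes tested, *Cd68* 99.6%, *Stab1* 89.2% and *Olr1* 13.1%. The length pools the exons of all annotated transcripts of a gene. It was 1257 bases for *Cd68*, with 3 transcripts in GENCODE M21, and 10288 bases for *Stab1*, with 13. Genes with many transcripts can therefore come out too low, and the part of this in the order was not tested.

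**Figure D1:**
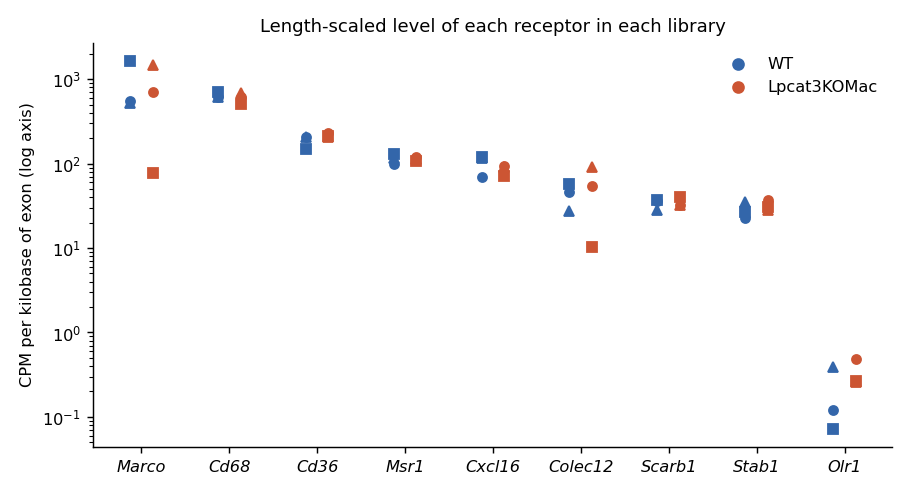
Level of each receptor in CPM per kilobase of exon (log axis), 1 point per library, with circles, squares and triangles for mice 1, 2 and 3 of each genotype. *Marco* spans 77.1 to 1646 CPM per kilobase while *Cd68* stays between 513 and 714, and *Olr1* lies below all other receptors in every library.

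Not every step of this order was larger than the spread between mice. The ranges of *Cd68* and *Cd36*, of *Cd36* and *Msr1*, and of *Stab1* and *Olr1* did not overlap over the 6 libraries. The ranges of *Msr1* and *Cxcl16*, of *Cxcl16* and *Colec12*, of *Colec12* and *Scarb1*, and of *Scarb1* and *Stab1* did overlap. *Marco* held rank 1 to rank 4 among the 9 receptors, depending on the library, and fell behind *Cd68*, *Cd36* and *Msr1* in Lpcat3KOMac mouse 2. *Cd68* was at rank 1 or 2 in every library, and *Olr1* was at rank 9 in every library.

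Between the genotypes, no receptor passed the test. In the quasi-likelihood test of edgeR with Benjamini-Hochberg adjustment, 0 of the 9 receptors had an adjusted p-value under 0.05, where 0% of the 16134 genes tested did. *Lpcat3* and *Lyz2* were not called by this test either, at log2 fold changes of -1.56 and -1.42. A receptor difference of that size could therefore also have gone uncalled. At an unadjusted p-value under 0.05 there were 0 receptors, against 426 genes or 2.64% of those tested, and DESeq2 and limma-voom each also called 0 receptors and placed 0 of them below 0.05 unadjusted. No receptor had every Lpcat3KOMac library below every WT library, a pattern held by 5.2% of genes, and none had every Lpcat3KOMac library above every WT library, held by 2.29% of genes. The fitted log2 fold change of Lpcat3KOMac against WT was below 0 for 4 receptors and above 0 for 5, with a median of 0.06, beside a median of -0.04 over all genes tested. The p-values of edgeR weigh the genotype difference against the spread between these mice, which is estimated with the help of all genes. The smallest p that an exact permutation test of 3 mice against 3 can reach is 0.1.

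**Figure D2:**
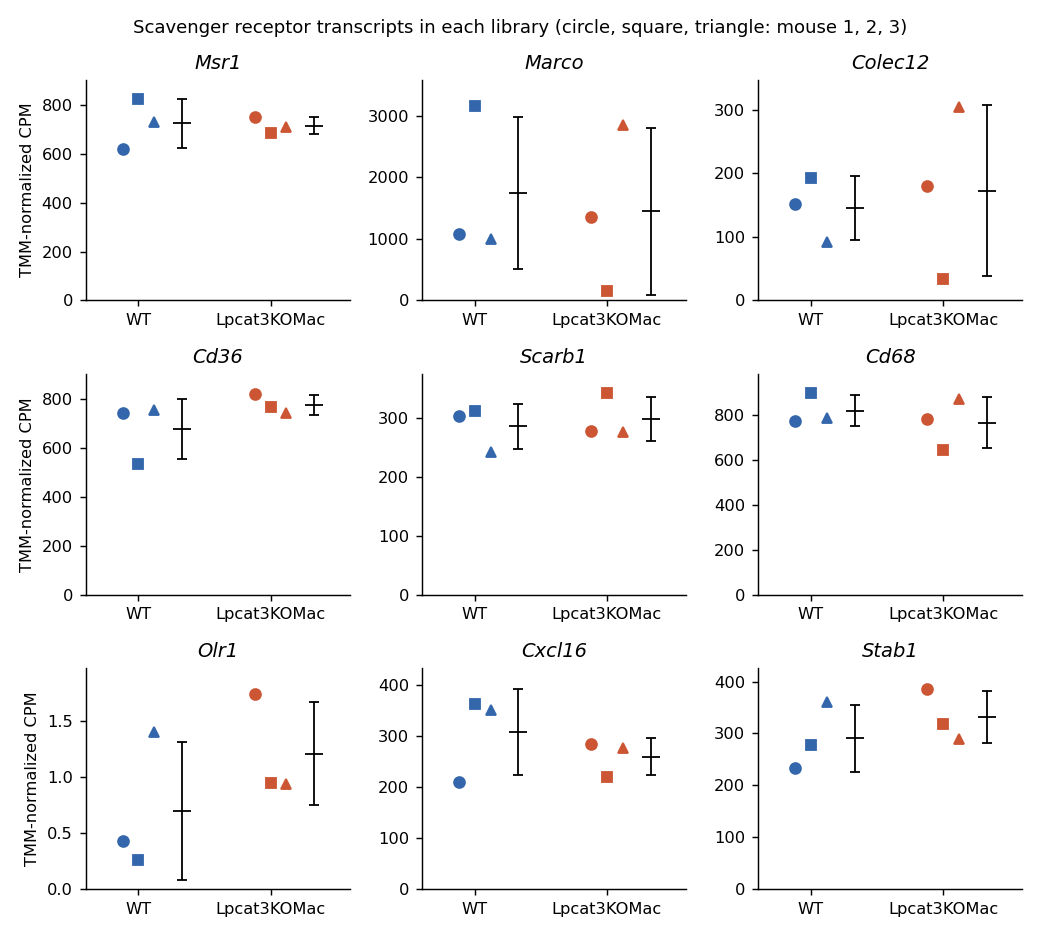
TMM-normalized CPM of each receptor in each library, with WT in blue and Lpcat3KOMac in red, circles, squares and triangles for mice 1, 2 and 3, and bars for the mean and SD of 3 mice. The genotypes overlap in all 9 panels, and the WT and Lpcat3KOMac values of *Marco* and *Colec12* are spread far wider than those of *Msr1* or *Cd68*.

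Among the class A receptors, which share a collagen-like stalk, *Msr1* was steady and *Marco* and *Colec12* were not. *Msr1* (ENSMUSG00000025044, chromosome 8 of GRCm38, 39581685 to 39642673, minus strand) encodes the macrophage receptor for acetylated and oxidized LDL. Its levels were 623, 826 and 731 CPM in the WT libraries (mice 1 to 3) and 752, 685 and 713 CPM in the Lpcat3KOMac libraries. The 3 Lpcat3KOMac values lay inside the WT range. Its means were 727 ± 102 CPM in WT and 717 ± 33.7 CPM in Lpcat3KOMac cells (SD, n = 3 each), and the log2 fold change was -0.02 ± 0.12 (SE). The 95% interval of the ratio ran from 0.798 to 1.22 times the WT level, the narrowest of the class. Its sign turned in 6 of 15 alternative fits, across which it ran from -0.12 to 0.08.

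*Marco* (ENSMUSG00000026390, chromosome 1, 120474538 to 120505024, minus strand) encodes a receptor for bacteria and inert particles that is found on a few kinds of resident macrophage. Its levels were 1076, 3168 and 999 CPM in the WT libraries (mice 1 to 3) and 1353, 148 and 2855 CPM in the Lpcat3KOMac libraries. WT mouse 2 and Lpcat3KOMac mouse 3 were high, Lpcat3KOMac mouse 2 was low, and the other 3 libraries lay close together. The highest library held 21.3 times the level of the lowest. The means of 1748 ± 1231 CPM in WT and 1452 ± 1356 CPM in Lpcat3KOMac cells (SD, n = 3 each) gave a log2 fold change (± SE) of -0.27 ± 1.04 and an interval of 0.138 to 5.0 times the WT level. These libraries could therefore not resolve even a several-fold difference of *Marco* between genotypes. Its log2 fold change was 0.48 without WT mouse 2, 0.29 without Lpcat3KOMac mouse 2 and -1.21 without Lpcat3KOMac mouse 3.

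*Colec12* (ENSMUSG00000036103, chromosome 18, 9707648 to 9877995, plus strand), also called collectin placenta 1, carries a C-type lectin domain at the end of its collagen-like stalk and is known mainly from endothelium. Its levels were 152, 192 and 91.1 CPM in the WT libraries (mice 1 to 3) and 180, 34.4 and 304 CPM in the Lpcat3KOMac libraries. As for *Marco*, the lowest library was that of Lpcat3KOMac mouse 2 and the 2 highest were WT mouse 2 and Lpcat3KOMac mouse 3, with an 8.83-fold range. The means were 145 ± 50.9 CPM in WT and 173 ± 135 CPM in Lpcat3KOMac cells (SD, n = 3 each), or a log2 fold change (± SE) of 0.25 ± 0.76. It became -0.42 without Lpcat3KOMac mouse 3 and -0.10 with a replicate block.

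The class B receptors span the membrane at both ends and handle lipids directly. *Cd36* (ENSMUSG00000002944, chromosome 5, 17781690 to 17888801, minus strand), the receptor for long-chain fatty acids and oxidized LDL, stood at 742, 535 and 753 CPM in the WT libraries (mice 1 to 3) and 821, 767 and 742 CPM in the Lpcat3KOMac libraries. Apart from the low WT mouse 2, the libraries lay within 742 to 821 CPM. Its means were 677 ± 123 CPM in WT and 776 ± 40.6 CPM in Lpcat3KOMac cells (SD, n = 3 each), or a log2 fold change (± SE) of 0.20 ± 0.15 with an interval of 0.884 to 1.49 times the WT level. Without WT mouse 2 the log2 fold change was 0.05.

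*Scarb1* (ENSMUSG00000037936, chromosome 5, 125277087 to 125341094, minus strand) encodes SR-BI, the receptor through which cells take cholesteryl esters from HDL, and is also made by hepatocytes. Its levels were 304, 312 and 242 CPM in the WT libraries (mice 1 to 3) and 278, 342 and 277 CPM in the Lpcat3KOMac libraries. The highest value was that of Lpcat3KOMac mouse 2 and the lowest that of WT mouse 3, with the genotypes interleaved. The means were 286 ± 37.9 and 299 ± 37.4 CPM (SD, n = 3 each), or a log2 fold change (± SE) of 0.06 ± 0.14, which became -0.04 without WT mouse 3 and -0.03 without Lpcat3KOMac mouse 2.

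*Cd68* (ENSMUSG00000018774, chromosome 11, 69664213 to 69666153, minus strand), whose product macrosialin resides in late endosomes and lysosomes and serves as a general macrophage marker, was even across libraries. Its levels were 773, 898 and 786 CPM in the WT libraries (mice 1 to 3) and 782, 645 and 872 CPM in the Lpcat3KOMac libraries. WT mouse 2 and Lpcat3KOMac mouse 3 were again the highest and Lpcat3KOMac mouse 2 the lowest, here with only a 1.39-fold range. The means were 819 ± 68.6 CPM in WT and 766 ± 115 CPM in Lpcat3KOMac cells (SD, n = 3 each), or a log2 fold change (± SE) of -0.10 ± 0.14, which became 0.03 without Lpcat3KOMac mouse 2.

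*Olr1* (ENSMUSG00000030162, chromosome 6, 129485244 to 129507165, minus strand) encodes LOX-1, a lectin-like receptor of oxidized LDL known best from endothelial cells. It was the only receptor near the limit of these libraries, with 28, 13 and 64 counts in WT mice 1 to 3 and 101, 49 and 44 counts in Lpcat3KOMac mice 1 to 3. In CPM these were 0.431, 0.260 and 1.40 in WT and 1.74, 0.945 and 0.935 in Lpcat3KOMac cells, so WT mice 1 and 2 were low and WT mouse 3 was not. The log2 fold change was 0.80 ± 0.68 (SE), with an interval of 0.543 to 5.60 times the WT level. It was 0.41 without WT mouse 2, 0.49 without Lpcat3KOMac mouse 1 and 0.28 with the endothelial markers as a covariate. Without WT mouse 3 it was 1.79, with an unadjusted p of 0.015 and an adjusted p of 0.996 in the quasi-likelihood test of edgeR with Benjamini-Hochberg adjustment.

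*Cxcl16* (ENSMUSG00000018920, chromosome 11, 70453983 to 70459984, minus strand) encodes a membrane-bound chemokine that also binds oxidized LDL and phosphatidylserine. Its levels were 210, 362 and 350 CPM in the WT libraries (mice 1 to 3) and 284, 219 and 276 CPM in the Lpcat3KOMac libraries. WT mice 2 and 3 lay above every other library and WT mouse 1 below every other. Its means were 307 ± 84.3 CPM in WT and 260 ± 35.5 CPM in Lpcat3KOMac cells (SD, n = 3 each), or a log2 fold change (± SE) of -0.24 ± 0.24 with an interval of 0.565 to 1.26 times the WT level. Its exons overlap those of *Zmynd15* on the other strand by 552 bases, and *Zmynd15* had at most 3226 counts in a library, against at least 11343 for *Cxcl16*.

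The order of the libraries in *Cxcl16* ran against the hepatocyte transcripts. The 2 libraries with the most hepatocyte transcripts, WT mouse 1 and Lpcat3KOMac mouse 2, had the least *Cxcl16*, and the 2 with the fewest, WT mice 2 and 3, had the most. Over the 6 libraries the Pearson correlation of the log2 levels was -0.99 (Spearman -0.89), and -0.99 over the 4 left when the 2 libraries farthest from the median were taken out. Only 0.031% of the genes tested had a correlation as low. These values share libraries and scaling, the pair was picked for its size, and no p is given. *Cxcl16* also had a Pearson correlation of 0.81 with the lymphocyte markers (Spearman 1.00), which summed to at most 6.69 CPM. With the stellate cell markers it was -0.80 (Spearman -0.77). Nor was *Cxcl16* alone, as *Msr1* had one of -0.87 with the hepatocyte transcripts (Spearman -0.71). The part of any of these cell types in the *Cxcl16* values was not tested. With the hepatocyte transcripts as a covariate the log2 fold change of *Cxcl16* was -0.07 ± 0.07 (SE). With both hepatocyte-rich libraries left out, a choice made after seeing the data, it was -0.34, with an unadjusted p of 0.0112 and an adjusted p of 0.222 in the quasi-likelihood test of edgeR with Benjamini-Hochberg adjustment. Without WT mouse 1 alone it was -0.46, with an adjusted p of 0.302 in the same edgeR test. Without WT mouse 2 or Lpcat3KOMac mouse 2 it was -0.11, and without WT mouse 3 it was -0.14.

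*Stab1* (ENSMUSG00000042286, chromosome 14, 31139013 to 31168641, minus strand) encodes stabilin-1, a large clearance receptor of macrophages and of liver sinusoidal endothelium. Its levels were 233, 278 and 360 CPM in the WT libraries (mice 1 to 3) and 386, 319 and 290 CPM in the Lpcat3KOMac libraries. Lpcat3KOMac mouse 1 and WT mouse 3 were high, WT mouse 1 was low, and the genotypes overlapped. The means were 291 ± 64.6 CPM in WT and 332 ± 49.6 CPM in Lpcat3KOMac cells (SD, n = 3 each), or a log2 fold change (± SE) of 0.19 ± 0.20. It was 0.055 without WT mouse 1, 0.11 without Lpcat3KOMac mouse 1 and 0.37 without WT mouse 3. Lpcat3KOMac mouse 1 and WT mouse 1 were also the highest and lowest libraries for the summed endothelial markers. The Pearson correlation of *Stab1* with this sum was 0.84 over the 6 libraries (Spearman 0.89). It was 0.98 over the 4 left without the 2 farthest, whose sums lay between 1025 and 1140 CPM only. The covariate was instead the mean log2 CPM of the endothelial markers, lowest in WT mouse 2 at 6.47 and at 6.88 in WT mouse 1. With this covariate the log2 fold change of *Stab1* was 0.03 ± 0.24 (SE). The endothelial list held the paralog *Stab2*, at 447 ± 66.3 CPM in WT and 454 ± 61.3 CPM in Lpcat3KOMac cells (SD, n = 3 each). *Stab2* was the largest part of the sum and was lowest in WT mouse 1, at 371 CPM. *Clec4g*, *Kdr*, *Lyve1*, *Ehd3* and *Dnase1l3* were lowest in WT mouse 2, and *Pecam1* in Lpcat3KOMac mouse 1. With the recruited macrophage markers *Stab1* had the same Spearman correlation, 0.89 (Pearson 0.62). Overlap with *Nt5dc2* on the other strand covers 109 bases, and *Nt5dc2* had at most 676 counts, against at least 13633 for *Stab1*.

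**Figure D3:**
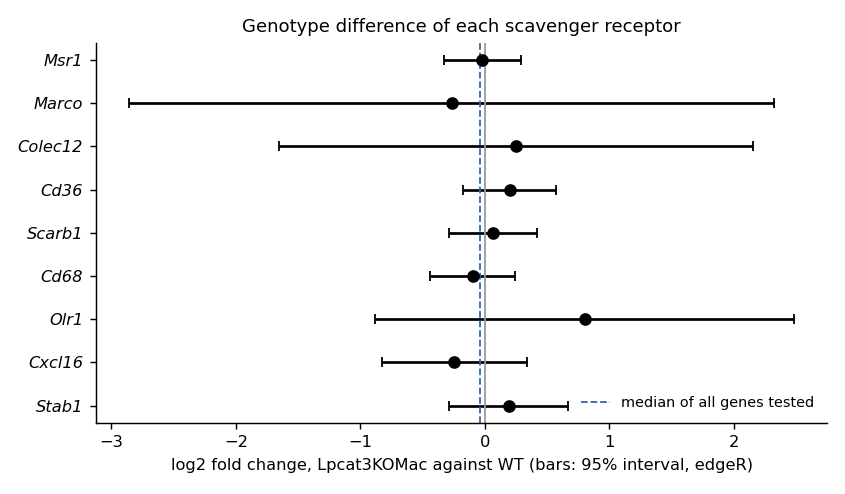
Log2 fold change of each receptor, Lpcat3KOMac against WT, from edgeR, with 95% intervals as bars and the median of all genes tested as a dashed line. All 9 intervals include 0, and those of *Marco*, *Colec12* and *Olr1* are several times wider than those of *Msr1*, *Cd68* and *Scarb1*.

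Besides their levels, the receptors varied in how far mice of the same genotype differed, and *Marco* and *Colec12* stood out. The SD of log2 CPM within genotype was 1.70 for *Marco* and 1.22 for *Colec12*, beside a median of 0.27 over all genes tested. That of *Marco* exceeded 97.7% of all genes and 97.4% of the 500 genes nearest to it in level, and that of *Colec12* exceeded 92.4% and 96.2%. For *Msr1* it was 0.15, for *Cd68* 0.18, for *Scarb1* 0.19 and for *Cd36* 0.20, all below the median of all genes. Among the 500 genes nearest in level, *Msr1* exceeded 44.0%, *Cd68* 50.8%, *Scarb1* 55.8% and *Cd36* 60.2%. *Stab1* at 0.27 and *Cxcl16* at 0.34 exceeded 72.8% and 85.0% of the genes nearest in level. *Olr1* was at 0.90, which exceeded 78.6% of the 500 genes nearest in level.

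**Figure D4:**
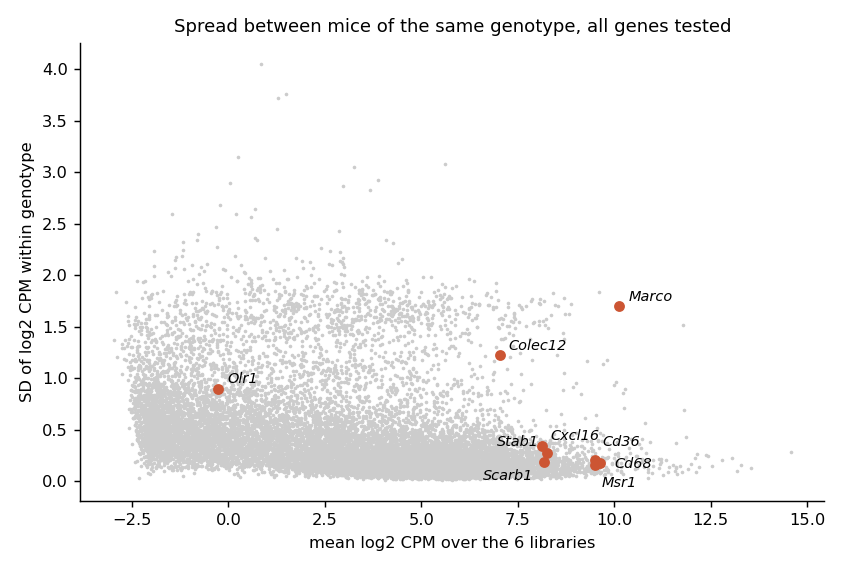
SD of log2 CPM within genotype against mean log2 CPM over the 6 libraries, with 1 grey point per gene tested and the 9 receptors in red. *Marco* and *Colec12* stand well above the mass of genes of their level, at 1.70 and 1.22, and the other abundant receptors lie within or at the edge of it.

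*Marco*, *Colec12* and *Cd68* shared their libraries: in each, WT mouse 2 and Lpcat3KOMac mouse 3 were the 2 highest and Lpcat3KOMac mouse 2 the lowest. This held for 657 genes, or 4.07% of those tested, 90 of them with at least a 5-fold range. The log2 levels of *Marco* and *Colec12* had a Pearson correlation of 0.95 (Spearman 0.94) over the 6 libraries, and 0.91 over the 4 left without the 2 farthest. *Marco* and *Cd68* had a correlation of 0.99 (Spearman 0.83), and 0.96 over those 4. By Pearson correlation over the 6 libraries these pairs are the closest among the 36 pairs of receptors, were picked as such, and share libraries and scaling. By Spearman correlation *Msr1* with *Cxcl16* and *Olr1* with *Stab1* were as close as *Marco* with *Colec12*, at 0.94, and closer than *Marco* with *Cd68*.

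Of the 7 Kupffer cell markers, 3 had the same order (*Timd4*, *Vsig4* and *Adgre1*), and *Clec4f*, *Folr2*, *Cd5l* and *Csf1r* did not. Values are given for *Timd4*, a phosphatidylserine receptor that marks long-lived Kupffer cells, and for *Cd163*, the receptor for haptoglobin-bound hemoglobin, which had this order too. Both were picked after their values were seen. *Timd4* stood at 428, 938 and 344 CPM in the WT libraries (mice 1 to 3) and 478, 123 and 645 CPM in the Lpcat3KOMac libraries. *Cd163* stood at 1132, 2493 and 684 CPM in the WT libraries (mice 1 to 3) and 1080, 396 and 1296 CPM in the Lpcat3KOMac libraries. Alone, *Timd4* ranged 7.63-fold. The 7 Kupffer cell markers together moved far less, over a 1.65-fold range, with most of their sum from *Clec4f* and *Cd5l*. Taken as a share of their sum, *Marco* still ranged from 0.648% in Lpcat3KOMac mouse 2 to 9.80% in Lpcat3KOMac mouse 3, a 15.1-fold range, and *Colec12* over a 6.94-fold range. By the same measure *Cd68* ranged 1.27-fold and *Msr1* 1.37-fold. The Pearson correlation with the Kupffer cell sum over the 6 libraries was 0.80 for *Marco*, 0.60 for *Colec12* and 0.86 for *Cd68*. Over the 4 libraries left without the 2 farthest it was 0.16, -0.12 and 0.42. The part of a changing makeup of macrophage populations in these ranges and correlations was not tested.

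**Figure D5:**
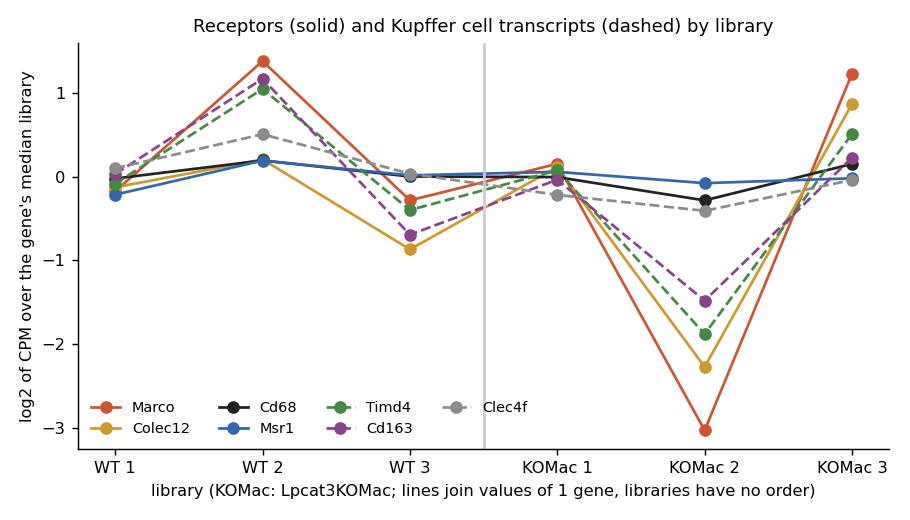
Log2 of CPM over each gene's median library, for 4 receptors (solid) and 3 Kupffer cell transcripts (dashed), with WT libraries on the left and Lpcat3KOMac libraries on the right. *Marco*, *Colec12*, *Timd4* and *Cd163* dip together in Lpcat3KOMac mouse 2, while *Msr1*, *Cd68* and *Clec4f* move far less.

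*Cd36* and *Olr1* followed another order, both with their lowest library in WT mouse 2 and their highest in Lpcat3KOMac mouse 1. The 8 recruited macrophage markers (*Ccr2*, *Ly6c2*, *Cx3cr1*, *Trem2*, *Gpnmb*, *Spp1*, *Itgax* and *Cd9*) summed to 331, 161 and 648 CPM in the WT libraries (mice 1 to 3) and 669, 653 and 626 CPM in the Lpcat3KOMac libraries, with the same lowest and highest libraries. Against this sum *Cd36* had a Pearson correlation of 0.91 (Spearman 0.94), and 0.90 over the 4 libraries left without the 2 farthest. *Olr1* had one of 0.93 (Spearman 0.94), and 0.75 over those 4. Those 4 had sums of 626 to 669 CPM only, too narrow a range to show whether either correlation holds without the rest. All 8 markers had a log2 fold change above 0, with a median of 0.53 and 1 of them at an unadjusted p under 0.05 in edgeR (*Spp1*). For 2 of them, *Gpnmb* and *Spp1*, every Lpcat3KOMac library was above every WT library, as for 2.29% of all genes. Over all genes tested 59.9% had a log2 fold change below 0 and 2.64% an unadjusted p under 0.05. Other lists also gave large values over the 6 libraries. *Cd36* had a Pearson correlation of -0.87 with the Kupffer cell markers and 0.87 with the stellate cell markers. For *Olr1* it was 0.79 with the neutrophil and dendritic cell markers and 0.72 with the endothelial markers. The part of the recruited macrophage markers or of these other markers in the *Cd36* and *Olr1* values was not tested.

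The RefSeq promoter table held 5 of the 9 receptors, with the bases before each start of transcription on GRCm38.p6. The promoters of *Marco* and *Cd68*, which moved together across libraries, and of *Cd36* and *Olr1*, which followed the other order, are shown as the 250 bases before the RefSeq start, all on the minus strand and written 5′ to 3′. They lie at chr1:120505025-120505274, chr11:69666171-69666420, chr5:17835897-17836146 and chr6:129507166-129507415, respectively. The *Cd36* start of this table lies 52905 bases inside the outermost start of the gene, so it belongs to a shorter transcript. Capitals mark the words searched for on both strands: AGGTCA, a core word of nuclear receptor sites, TGCTGA, a core word of MAF sites, TGANTCA, the AP-1 word, and AGAGGAAG, a PU.1 word.
Marco: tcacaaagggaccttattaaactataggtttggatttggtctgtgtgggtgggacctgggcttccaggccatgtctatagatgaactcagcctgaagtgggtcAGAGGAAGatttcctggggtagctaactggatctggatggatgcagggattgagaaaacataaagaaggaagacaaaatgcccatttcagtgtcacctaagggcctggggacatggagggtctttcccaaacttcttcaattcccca
Cd68: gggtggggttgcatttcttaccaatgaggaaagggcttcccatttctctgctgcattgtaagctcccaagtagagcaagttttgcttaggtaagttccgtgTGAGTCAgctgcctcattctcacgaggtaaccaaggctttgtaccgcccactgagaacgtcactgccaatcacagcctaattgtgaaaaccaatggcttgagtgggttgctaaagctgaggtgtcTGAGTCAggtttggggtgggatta
Cd36: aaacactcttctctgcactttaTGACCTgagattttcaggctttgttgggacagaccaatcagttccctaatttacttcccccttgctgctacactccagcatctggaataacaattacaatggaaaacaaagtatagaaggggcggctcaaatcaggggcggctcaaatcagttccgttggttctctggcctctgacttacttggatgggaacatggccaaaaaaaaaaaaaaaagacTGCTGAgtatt
Olr1: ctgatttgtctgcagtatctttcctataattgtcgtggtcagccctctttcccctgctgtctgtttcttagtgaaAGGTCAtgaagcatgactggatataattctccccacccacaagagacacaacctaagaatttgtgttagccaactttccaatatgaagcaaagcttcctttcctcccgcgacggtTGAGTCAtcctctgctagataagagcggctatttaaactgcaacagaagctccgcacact

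The AGGTCA word began 228 bases before the start in *Cd36*, on the other strand as TGACCT, and 175 bases before it in *Olr1*. It was present in 14.02% of the 32851 promoters searched. TGCTGA began 11 bases before the start of *Cd36* and 43 bases before that of *Stab1*, and 16.08% of promoters held it. TGANTCA was found at 149 and 24 bases before the start of *Cd68* and 60 bases before that of *Olr1*, beside 6.75% of all promoters, and AGAGGAAG at 147 bases before the start of *Marco*, beside 3.67%. These last 2 words were added after the promoters had been read. TATAAA, in 12.37% of promoters, and GAGGAAGT, in 2.44%, were in none of the 5. A match describes letters only, and a word that is absent was absent from this window alone. The promoters of *Marco* and *Cd68* had no searched word in common.

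By the likeness of their log2 levels over the 6 libraries, the 3 genes closest to *Marco* were *Wdr46*, *Ecm1* and *Ak8* (Pearson 0.99 or above). *Ecm1* is also in the stellate cell list. Those closest to *Colec12* were *Stk10*, *Fth1* and *Chmp6*, of which *Fth1* encodes the ferritin heavy chain, and those closest to *Cd68* were *Zdhhc18*, *Plbd2* and *Zfp532*. *Vps13a*, *Gm8995* and *Acap3* were closest to *Msr1*, and *Prmt1*, *Rcan3* and *Fbxw10* to *Cxcl16*. *Aebp1*, *Plekhh2* and *Dbn1* were closest to *Cd36*, *Usp46*, *Zfp759* and *Polr2b* to *Scarb1*, and *Gm5602*, *Pdss1* and *Zfp800* to *Stab1*. Of the genes named for likeness, *Gm5602*, *Plekhh2* and *Aebp1* were low, with means of 0.264, 0.774 and 0.955 CPM. With so few libraries, high values are common: 104 other genes had a correlation above 0.95 with *Marco*, 108 with *Cd68*, 197 with *Cxcl16* and 19 with *Scarb1*.

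Beyond these receptors, 16 further genes of scavenger receptor type were listed, of which 14 passed the filter on low counts and 0 were called. Their log2 fold changes were below 0 for 9 and above 0 for 5, with a median of -0.07. *Clec7a*, the beta-glucan receptor Dectin-1, was the only gene of the list at an unadjusted p under 0.05 in edgeR, and it lay above 0.05 in 7 of the 15 alternative fits, among them those without WT mouse 1, WT mouse 2, Lpcat3KOMac mouse 1 or Lpcat3KOMac mouse 2. Over all genes tested, 2.64% had an unadjusted p under 0.05 in edgeR. For *Clec7a*, WT mice 1 to 3 had 486, 451 and 613 CPM and Lpcat3KOMac mice 1 to 3 had 694, 707 and 594 CPM. The log2 fold change (± SE) was 0.37 ± 0.15. *Cd5l*, a secreted protein with scavenger receptor domains, had a log2 fold change (± SE) of -0.22 ± 0.13, and *Scarb2*, the lysosomal relative of *Scarb1*, one of -0.14 ± 0.09 (SE).

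What a scavenger receptor brings in is broken down in lysosomes and its cholesterol is exported, and 10 genes of these steps were all measured, with 0 called and 0 at an unadjusted p under 0.05. Their log2 fold changes were below 0 for 4 and above 0 for 6, with a median of 0.02. *Npc2*, which carries cholesterol out of lysosomes, stood at 816, 861 and 945 CPM in the WT libraries (mice 1 to 3) and 795, 746 and 724 CPM in the Lpcat3KOMac libraries. Every Lpcat3KOMac library was below every WT library, as for 5.2% of all genes tested. The log2 fold change (± SE) of *Npc2* was -0.21 ± 0.09. The lysosomal membrane protein gene *Lamp1* showed the same separation, at 1955 ± 39.8 CPM in WT and 1794 ± 33.6 CPM in Lpcat3KOMac cells (SD, n = 3 each), or a log2 fold change (± SE) of -0.12 ± 0.07. *Nceh1*, a cholesteryl ester hydrolase, had a log2 fold change (± SE) of 0.16 ± 0.09, and *Apoe*, the apolipoprotein of cholesterol efflux, one of -0.23 ± 0.21 (SE). Without WT mouse 1 that of *Apoe* was -0.086. The efflux pumps *Abca1* and *Abcg1* had values of 0.04 ± 0.20 (SE) and 0.00 ± 0.11 (SE), named here after their values were seen.

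Of 12 genes whose products work with these receptors, as signaling partners, proteases or the receptor *Cxcr6* for the shed form of *Cxcl16*, 0 were called and 0 were at an unadjusted p under 0.05. Their log2 fold changes were below 0 for 9 and above 0 for 3, with a median of -0.05. The tetraspanin *Cd9*, which associates with *Cd36* and is also in the recruited macrophage list, had the smallest p, with 51.3 ± 20.3 CPM in WT and 75.9 ± 13.7 CPM in Lpcat3KOMac cells (SD, n = 3 each) and a log2 fold change (± SE) of 0.56 ± 0.32. Without WT mouse 2 it was 0.31 and without WT mouse 3 it was 0.89. The kinase *Lyn*, the integrin *Itgb1* and the Toll-like receptor *Tlr2* had log2 fold changes of -0.11 ± 0.11 (SE), -0.09 ± 0.09 (SE) and -0.37 ± 0.39 (SE), and that of *Tlr2* became 0.05 without WT mouse 2. *Cxcr6* was nearly absent, at 0.458 ± 0.177 CPM in WT and 0.503 ± 0.250 CPM in Lpcat3KOMac cells (SD, n = 3 each).

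The 10 listed transcription regulators of scavenger receptor genes and macrophage identity were also measured, and 0 were called. Their log2 fold changes were below 0 for 8 and above 0 for 2, with a median of -0.11. *Srebf2*, the regulator of cholesterol synthesis genes, stood at 57.7, 68.5 and 56.7 CPM in the WT libraries (mice 1 to 3) and 78.0, 82.0 and 91.6 CPM in the Lpcat3KOMac libraries. Every Lpcat3KOMac library was above every WT library, as for 2.29% of all genes tested. The log2 fold change (± SE) was 0.46 ± 0.11, with an unadjusted p of 0.00675 in the quasi-likelihood test of edgeR. *Srebf2* was the only gene of the list at an unadjusted p under 0.05, as were 2.64% of all genes tested. Its adjusted p with edgeR, DESeq2 or limma-voom was not under 0.05 in any of the 15 alternative fits, where the smallest was 0.297. *Id3*, a Kupffer cell regulator, had a log2 fold change (± SE) of -0.31 ± 0.14, *Maf* one of -0.13 ± 0.10 (SE), and *Pparg*, the nuclear receptor that controls *Cd36*, one of 0.27 ± 0.20 (SE). That of *Pparg* was 0.11 without WT mouse 2 and 0.49 without WT mouse 1.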

How the data were processed

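Poly-A RNA of F4/80-positive liver cells was sequenced from 3 WT and 3 Lpcat3KOMac mice. For each mouse the authors deposited whole-number, unnormalized counts on 49315 Ensembl genes. The submitters' processing notes name Trimmomatic 0.36, STAR 2.5.2b, featureCounts, Subread 1.5.2 and GRCm38. The strand setting and the treatment of multi-mapping reads are not given in the sources used here, which leaves uncertain the level of any gene that shares bases with a gene on the other strand. Of the gene identifiers, 49056 were found in GENCODE M21, which gave the symbols.

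Counts were TMM-normalized and compared with edgeR 4.0.16 in R 4.3.3 by the robust quasi-likelihood test on the 16134 genes that passed filterByExpr (minimum count 10), with genotype as the only term and Benjamini-Hochberg adjustment over all of them. The threshold for a call was an adjusted p of 0.05. Standard errors come from the log2 fold change and the F statistic. Log2 CPM used a prior count of 2. CPM per kilobase used the exonic length of the deposited tables. Total counts of 44954224 to 71392812 per library put at least 1783 counts on every receptor but *Olr1* in every library. Single genes were also examined with a two-sided exact permutation test over the 6 mice, and its p was at least 0.3 for every receptor.

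The receptors and the gene lists were chosen with earlier results of these data known. Named were all 9 receptors, from each of 4 lists the 4 genes with the smallest unadjusted p, for each receptor whose own mean was at least 10 CPM the 3 genes most like it, with no such floor on them, and *Lpcat3* and *Lyz2*. Of these, 1 gene is not reported here. *Cd5l*, *Cd9* and *Stab2* stood in 2 lists each. Alternatives were scaling by total counts or by DESeq2 size factors, no filter on low counts, DESeq2 1.42.0, limma-voom (limma 3.58.1), a replicate block, a hepatocyte or an endothelial covariate, leaving out each mouse, ranks within libraries in place of mean levels, and Spearman in place of Pearson correlation. Leaving out both hepatocyte-rich libraries was added after seeing the data. The tests were tested on simulated data. Their spread between mice was set below that of these libraries, so they do not show how large a difference would be called here. No library was a copy of another: counts of every pair differed by more than sampling noise (chi-square per degree of freedom 40.8 to 519). Promoters are those of RefSeq on GRCm38.p6. Protein sequences were not used here. Lipid, histology and whole-liver measurements were not analysed here.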

Additional observations from a re-analysis of the deposited data

How the results depend on the processing

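No receptor was called in any of the 15 alternative fits, and the smallest adjusted p was 0.222 (*Cxcl16*, both hepatocyte-rich libraries left out). The number of genes called was 0 except in DESeq2, which called 15 genes, *Lpcat3* and *Lyz2* among them (log2 fold changes of -1.55 and -1.40, against -1.56 and -1.42 in edgeR). Genes at an unadjusted p under 0.05 ranged from 138 to 2028. The cause of these moves was not tested.

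The directions of *Cd36*, *Olr1*, *Cxcl16* and *Stab1* held in all 15. *Msr1* turned to 0.070 with total counts alone, 0.041 with the hepatocyte covariate and 0.044 with the endothelial covariate, which also turned *Marco* to 0.69 and *Cd68* to 0.049. *Marco* turned to 0.015 with both hepatocyte-rich libraries left out, and *Colec12* to -0.17 in limma-voom. When single mice were left out, the log2 fold change ran from -0.12 to 0.082 for *Msr1*, -1.21 to 0.48 for *Marco*, -0.42 to 0.75 for *Colec12*, -0.042 to 0.15 for *Scarb1*, -0.17 to 0.031 for *Cd68* and -0.63 to 0.051 for *Tlr2*. The median of the 9 receptors ran from -0.02 to 0.22, with 0 genes and 0 receptors called.

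With the replicate block, 0 genes were called, *Colec12* turned to -0.10, *Marco* was at -0.49 and the median of the receptors at -0.01. The deviations of same-numbered libraries had correlations of -0.30, -0.60 and 0.36 across genes, beside a mean of 0.11 for other pairs, so the numbers were not taken to pair the mice.

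By Spearman correlation, between 71 and 1751 genes were at least as like a receptor as the third gene named for it. The order of the receptors by median rank within libraries differed from that by mean by at most 1 rank. *Olr1* rests on the fewest counts, at 13 to 101 per library. With 3 mice per genotype, the dependence on single libraries is shown only by leaving them out.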
